A study of Mus musculus with 2 samples.

Results

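The 10 genes described here code for heat shock proteins and their direct partners in the cytosol and the mitochondrion: Hspa1a, Hspa1b, Dnajb1, Hsph1, Bag3, Hspa8, Hsp90aa1, Hsp90ab1, Hspd1 and Hspe1. They were chosen by name and function, and each matched 1 row among the 28692 genes of the count tables. The tissue was a subcutaneous tumour of A20, a BALB/c B cell lymphoma line, grown in BALB/c mice and analysed by droplet single-cell RNA sequencing from the 5' end of transcripts. The TAK-981 library came from tumours taken 8 h after an intravenous injection of 7.5 mg/kg TAK-981, an inhibitor of the enzyme that activates SUMO for attachment to proteins, and the vehicle library from tumours taken 8 h after 20% HPbCD, the cyclodextrin solution alone. There was 1 library per arm, and how many mice each holds is not given in the labels used here, so no difference between the arms has a replicate check and no test across conditions was possible.

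Heat shock proteins are molecular chaperones that bind unfolded or unfinished proteins. HSP70 proteins (Hspa genes) work in cycles with HSP40 partners (Dnaj genes) and nucleotide exchange factors, and hand some clients to HSP90, while HSP60 and HSP10 form the folding chamber of the mitochondrial matrix. Some of these genes are on in growing cells at all times, and others are switched on by heat shock factor 1 (HSF1) when unfolded proteins build up. HSF1 binds repeats of GAA and its complement TTC upstream of its targets. Tumour cells often carry high levels of these proteins, and HSP90 inhibitors have been developed against them.

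The sequences upstream of Hspa1a, Hspa1b and Hsph1 are shown because these are the inducible members whose upstream stretch held the repeats searched for. Each is the 250 bases before the gene's first base in the RefSeq promoter table for GRCm38.p6, read 5' to 3' on the gene's strand, at chr17:34972157-34972406 (minus strand) for Hspa1a, chr17:34959239-34959488 (minus strand) for Hspa1b and chr5:149636337-149636586 (minus strand) for Hsph1. Capitals mark GAANNTTC or TTCNNGAA, the paired repeats that were searched, each of which reads the same on both strands.
Hspa1a: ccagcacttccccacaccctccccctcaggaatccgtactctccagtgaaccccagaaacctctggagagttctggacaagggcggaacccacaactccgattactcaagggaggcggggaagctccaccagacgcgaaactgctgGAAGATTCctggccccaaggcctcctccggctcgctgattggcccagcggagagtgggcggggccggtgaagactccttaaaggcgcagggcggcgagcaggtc
Hspa1b: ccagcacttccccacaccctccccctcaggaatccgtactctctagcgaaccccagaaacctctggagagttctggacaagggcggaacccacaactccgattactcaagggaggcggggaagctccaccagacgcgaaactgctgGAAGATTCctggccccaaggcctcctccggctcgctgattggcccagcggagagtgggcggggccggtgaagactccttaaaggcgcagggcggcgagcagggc
Hsph1: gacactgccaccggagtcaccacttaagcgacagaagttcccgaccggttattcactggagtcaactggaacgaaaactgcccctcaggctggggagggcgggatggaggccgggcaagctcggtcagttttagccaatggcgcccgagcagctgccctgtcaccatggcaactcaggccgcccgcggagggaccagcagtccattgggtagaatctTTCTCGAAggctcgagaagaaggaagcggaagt
Hspa1a and Hspa1b had the pair of repeats 104 bases before their start and Hsph1 had one 33 bases before it. The 2 Hspa1 stretches were 98.8% identical. Counted from the first printed base, with the Hspa1a base first, they differed by C44T, T47C and T249G. The starts of the 2 genes lie 12918 bases apart.

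Of the 10 members, 7 were in the promoter table, and 4 of these 7 held at least 1 pair of repeats in the upstream 250 bases, against 12.8% of all 32851 promoters in the table. The fourth was Hspe1, with 3 overlapping pairs, the first of them 89 bases before its start, in the 18-base run at chr1:55088059-55088076 (plus strand).
Hspe1: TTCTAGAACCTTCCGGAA
A run of 3 or more repeats in this spacing (GAANNTTCNNGAA or TTCNNGAANNTTC, which overlap the pairs) was found in 0.466% of all promoters. The windows of Dnajb1, Bag3 and Hspd1 held neither pair. Dnajb1, Hspd1 and Hsph1 have 2 starts each in the table, and only the most upstream was searched. The 12.8% counts every start. Hspd1 and Hspe1 lie on opposite strands with starts 95 bases apart, and from these starts each is read across the start of the other. The Hspe1 run therefore lies past this Hspd1 start and outside the Hspd1 window. These matches describe letters and not binding.

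Cells were placed in 3 classes by the UMIs (unique molecular identifiers, each standing for 1 captured transcript) of a few marker genes, after leaving out barcodes with 10% or more of their UMIs from mitochondrial genes. A20 cells had at least 1 Cd79a UMI and no UMI of Cd3d, Cd3e, Cd3g or Lyz2, T cells at least 2 UMIs over the 3 Cd3 genes, and myeloid cells at least 5 Lyz2 UMIs. These rules gave 1754 A20, 45 T and 39 myeloid cells in the TAK-981 library and 2191 A20, 60 T and 44 myeloid cells in the vehicle library. The vehicle library was deeper, with a median of 16195 UMIs per A20 cell under TAK-981 and 22309 under vehicle, and the mitochondrial limit removed 15.7% of TAK-981 and 4.81% of vehicle barcodes. Each class carried its other markers (Trac, Lck and Thy1 in T cells, Csf1r, Tyrobp and Fcer1g in myeloid cells), while fibroblast and erythroid markers were at 0 in both host classes. Cd79a was present in 9 of 45 TAK-981 and 13 of 60 vehicle T cells and in 4 of 39 TAK-981 and 4 of 44 vehicle myeloid cells. In the myeloid cells, summed neutrophil markers stood at 212 UMIs per 1000000 of the class total (CPM) under TAK-981 and 48.7 CPM under vehicle, and C1qa, a macrophage gene, had no UMI under TAK-981 and 100 UMIs (187 CPM, 7 of 44 cells) under vehicle. Adgre1, another macrophage gene, stood at 35.8 CPM under TAK-981 and 86.2 CPM under vehicle, and Cd74, which escorts MHC class II, at 5481 CPM in 23 of 39 TAK-981 cells and 19150 CPM in 42 of 44 vehicle cells. In T cells Ccr7, a receptor of naive and central memory cells, stood at 436 CPM in 21 of 45 TAK-981 cells and 722 CPM in 42 of 60 vehicle cells, and summed B cell markers at 1767 CPM under TAK-981 and 2350 CPM under vehicle. The part of these differences in make-up in the myeloid and T cell results that follow was not tested. The libraries shared 11 cell barcodes. Host B cells cannot be told apart from A20 cells by these rules.

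Hspa1a and Hspa1b, the inducible cytosolic HSP70 genes, were present in host cells and not detected in the tumour cells. No UMI of either gene was found in 1754 TAK-981 A20 cells or in 2191 vehicle A20 cells. A count of 0 allows up to 0.171% of TAK-981 and 0.137% of vehicle A20 cells with a UMI, and levels of up to 0.0924 CPM and 0.0566 CPM. In myeloid cells the pair had 68 UMIs, or 187 CPM, under TAK-981 and 33 UMIs, or 61.8 CPM, under vehicle. Taken at the measured counts, the pair was at least 2028-fold higher in TAK-981 myeloid cells, and at least 1092-fold higher in vehicle myeloid cells, than in the A20 cells of the same library, with 3 counts over the class as the floor for the A20 cells. In T cells it had 14 UMIs under TAK-981 and 4 UMIs under vehicle.

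In the myeloid cells the pair was 3.03-fold higher under TAK-981 than under vehicle, with a 95% counting interval of 1.97 to 4.75. All intervals here cover counting error only and not the spread between mice. Those of ratios and levels treat each UMI as an independent draw, so they also leave out the spread between cells. At equal depth the variance of Hspa1a counts over these myeloid cells was 3.05 times the mean under TAK-981 and 2.63 times under vehicle. Cells with a UMI of the pair made up 16 of 39 (41.0%, exact interval 25.6 to 57.9%) under TAK-981 and 12 of 44 (27.3%, 15.0 to 42.8%) under vehicle. The highest TAK-981 cells held 19, 11 and 9 UMIs and the highest vehicle cells 12, 7 and 4, and the other cells with a UMI held 1 to 4 under TAK-981 and 1 or 2 under vehicle. The ranges of the libraries overlapped, most cells of both were at 0, and a few cells carried much of each sum. Read gene by gene, Hspa1a had 61 UMIs (168 CPM) under TAK-981 and 30 UMIs (56.2 CPM) under vehicle, a log2 ratio of 1.58 (0.93 to 2.26). Hspa1b had 7 and 3 UMIs in the same order, with an interval of -0.35 to 4.36 on the log2 scale. The 2 genes are nearly identical, so the authors' counting could have split or lost reads between them, and the sum is the safer value. With the top cell of each gene left out of each library, a setting added after the data were seen, the log2 ratio of Hspa1a was 1.78.

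In T cells the pair's sum rested on 1 cell. That cell held 12 of the 14 UMIs under TAK-981, and the pair was present in 2 of 45 TAK-981 and 3 of 60 vehicle T cells. The log2 ratio of Hspa1a was 3.54 in all T cells and 0.93 without the top cell of each library, which left 1 UMI in each. Among cells that met none of the class rules, 182 under TAK-981 held 25 UMIs, 23 of them in 1 cell, and 160 under vehicle held 0. Barcodes over the mitochondrial limit held 1 UMI of the pair among 376 under TAK-981 and 0 among 124 under vehicle.

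**Figure D1:**
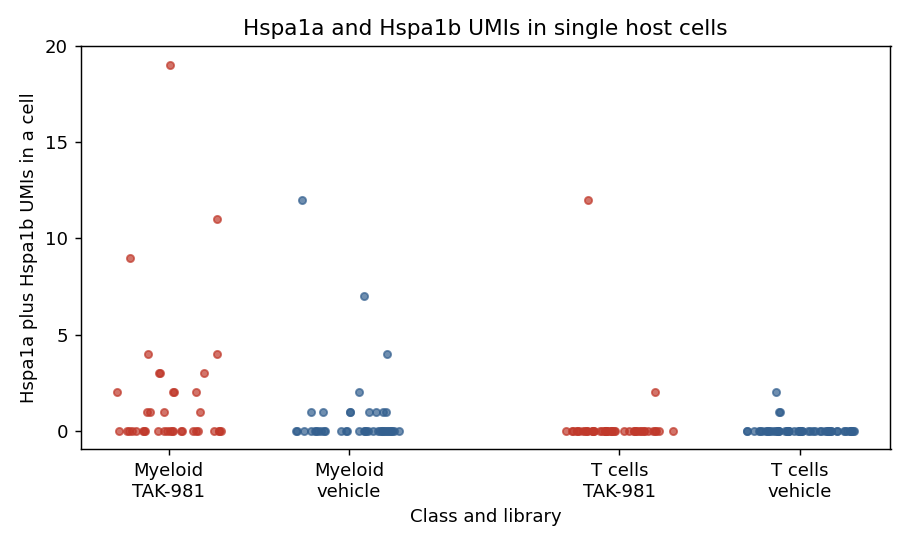
UMIs of Hspa1a plus Hspa1b in each myeloid cell and T cell (1 point per cell, jittered sideways), TAK-981 in red and vehicle in blue. Myeloid cells reach 19 UMIs under TAK-981 and 12 under vehicle, 1 TAK-981 T cell holds 12, and A20 cells, not drawn, were all at 0.

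Genes of early stress and cell handling also differed in the myeloid cells, and their part in the Hspa1 result was not tested. The 12 genes listed for this (Fos, Jun, Egr1, Ier2 and others) summed to 9245 CPM under TAK-981 and 7467 CPM under vehicle in myeloid cells, with 9 log2 ratios above 0 and 3 below it. Zfp36, which marks short-lived mRNAs for decay, stood at 2243 CPM under TAK-981 and 1285 CPM under vehicle, and Jun, a subunit of the AP-1 transcription factor, at 802 CPM and 302 CPM. Fos, its partner, differed little, at 1102 CPM under TAK-981 and 1056 CPM under vehicle, and Junb was lower, at 1438 CPM under TAK-981 and 1650 CPM under vehicle, as was Ier3, at 441 CPM and 612 CPM. These genes were named after their values were seen. In T cells the list summed to 2334 CPM under TAK-981 and 2240 CPM under vehicle. In A20 cells it was lower under TAK-981, at 678 CPM against 873 CPM under vehicle. There 9 of its 12 genes had log2 ratios below 0. Of all genes with at least 10 UMIs, 2850 of 6417 were above 0 in myeloid cells and 4925 of 12250 below 0 in A20 cells.

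Of the inducible partners, Dnajb1 and Bag3 were lower and Hsph1 slightly higher in TAK-981 A20 cells. Dnajb1, the HSP40 that delivers clients to cytosolic HSP70, had 2807 UMIs (86.5 CPM) under TAK-981 and 6749 UMIs (127 CPM) under vehicle, a log2 ratio of -0.56 (-0.62 to -0.49). Bag3, an exchange factor that links HSP70 clients to autophagy, had 286 UMIs (8.81 CPM) under TAK-981 and 674 UMIs (12.7 CPM) under vehicle, a log2 ratio of -0.53 (-0.73 to -0.33). Hsph1, the HSP110 exchange factor of HSP70, had 2674 UMIs (82.4 CPM) under TAK-981 and 3766 UMIs (71.0 CPM) under vehicle, a log2 ratio of 0.21 (0.14 to 0.29). None of the 8 members detected in A20 cells was 1.5-fold or more apart between the libraries in either direction. Over all 12250 genes with at least 10 UMIs in A20 cells, 7.97% were at least 1.5-fold higher and 3.49% at least 1.5-fold lower under TAK-981.

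The Dnajb1 difference depended on the depth of the cells. Among A20 cells with over 20000 UMIs the log2 ratio was -0.66, with 86.7 CPM in 655 TAK-981 cells and 137 CPM in 1225 vehicle cells. Among cells with 10000 to 20000 UMIs it was -0.055 (-0.19 to 0.079), with 99.8 CPM in 608 TAK-981 cells and 104 CPM in 603 vehicle cells. Below 10000 UMIs it was -0.16 (-0.48 to 0.16), with 50.4 CPM in 491 TAK-981 cells and 56.4 CPM in 363 vehicle cells. With every cell thinned to 4000 UMIs, which keeps the deep cells in, it was -0.51. At that equal depth, 23.0% of TAK-981 and 29.1% of vehicle A20 cells had a Dnajb1 UMI (57.0% and 69.7% unthinned). Dnajb1 was unevenly spread: the 18 TAK-981 cells with most Dnajb1 UMIs, 1% of the class, held 16.3% of its UMIs, and the 22 such vehicle cells held 19.9%. The top vehicle cell alone held 265 UMIs, against 60 in the top TAK-981 cell, and the log2 ratio without these cells was -0.53.

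Bag3 and Hsph1 varied with depth and mitochondrial share as well. Bag3 was lower under TAK-981 in 9 of 10 strata of A20 cells, with a log2 ratio of -1.02 at 10000 to 20000 UMIs and 0.51 (38 UMIs under TAK-981, 22 under vehicle) below 10000. Hsph1 was higher under TAK-981 in all 10 strata, from 0.047 to 0.43. Within each library it was higher in cells with more mitochondrial RNA, 1.72-fold under TAK-981 and 1.88-fold under vehicle between cells with a share of 5 to 10% and cells under 2.5%. The first kind made up 315 of 1754 A20 cells under TAK-981 and 201 of 2191 under vehicle. At a share of 5 to 10% Hsph1 stood at 129 CPM under TAK-981 and 124 CPM under vehicle, a log2 ratio of 0.047. Shares of cells at equal depth ran the same way, with Hsph1 in 24.8% of TAK-981 and 21.1% of vehicle A20 cells (57.2% and 61.4% unthinned) and Bag3 in 3.42% and 4.70% (12.2% and 18.6% unthinned). No cell class is known to lack Dnajb1, Hsph1 or Bag3, so their background from free RNA was not measured.

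**Figure D2:**
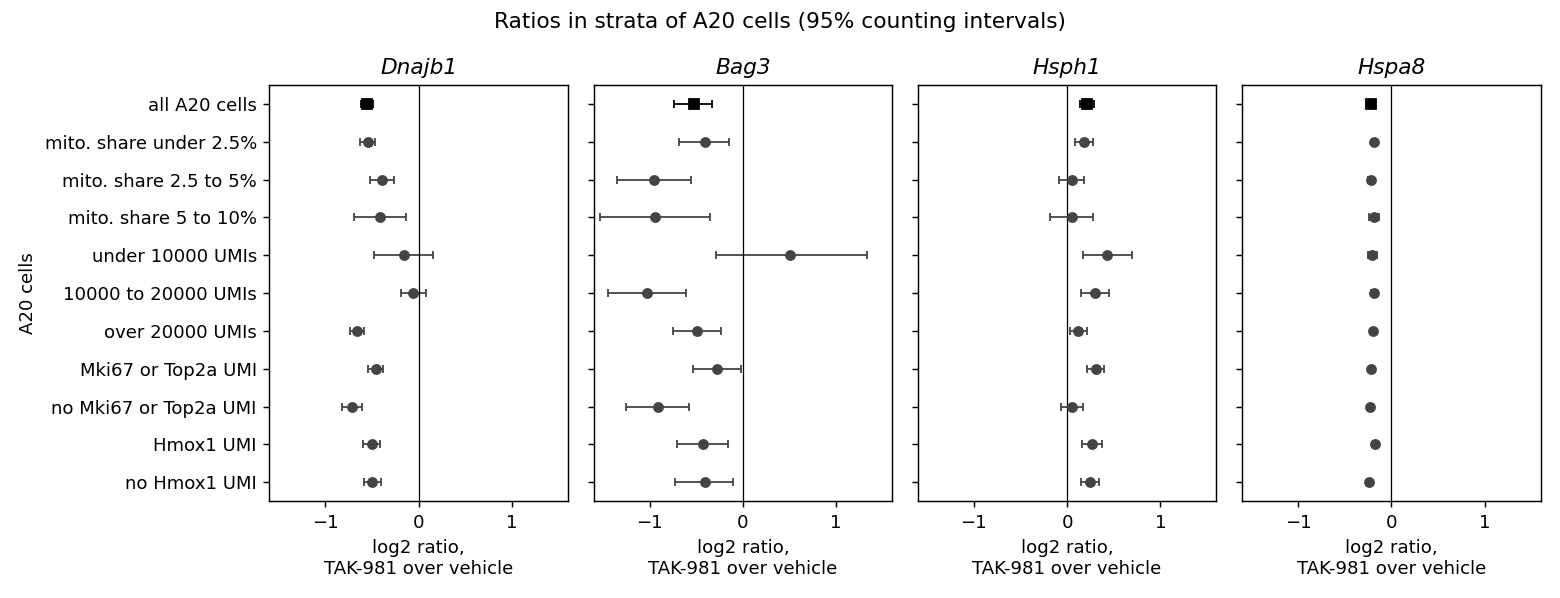
Log2 ratio of TAK-981 over vehicle for Dnajb1, Bag3, Hsph1 and Hspa8 in all A20 cells (squares) and in 10 overlapping strata (circles) by mitochondrial share, UMI total, Mki67 or Top2a and Hmox1, with 95% counting intervals. Dnajb1 lies at -0.055 for cells with 10000 to 20000 UMIs and at -0.66 above that, whereas Hspa8 keeps to -0.24 to -0.17 in every stratum.

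The same partners, and to a lesser extent most other members, followed Hmox1, the heme oxygenase gene of the oxidative stress response, within both libraries. A20 cells with an Hmox1 UMI at equal depth, 531 under TAK-981 and 873 under vehicle, had 2.20-fold more Bag3 under TAK-981 and 2.23-fold more under vehicle than cells without one. Thinning served only to call Hmox1. The levels compared were CPM of unthinned cells, and the part of cell depth in these ratios was not tested. For Dnajb1 these ratios were 1.53-fold under TAK-981 and 1.54-fold under vehicle, and for Hsph1 1.37-fold and 1.36-fold. Hsp90aa1, Hsp90ab1, Hspd1 and Hspe1 were higher too, by 1.16-fold to 1.22-fold under TAK-981 and 1.07-fold to 1.12-fold under vehicle. Hspa8 showed 1.05-fold under TAK-981 and 1.00-fold under vehicle, so the constitutive HSP70 gene did not share this pattern in size. The cells with and without Hmox1 come from the same 2 libraries and are not replicates.

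In the host classes the inducible partners had few UMIs. Dnajb1 had 64 UMIs (144 CPM) under TAK-981 and 127 UMIs (147 CPM) under vehicle in T cells, and 25 UMIs (68.9 CPM) and 34 UMIs (63.7 CPM) in myeloid cells, with intervals that include no difference in both classes. Bag3 had 6 UMIs in TAK-981 and 16 UMIs in vehicle T cells, and 10 UMIs in TAK-981 and 25 UMIs in vehicle myeloid cells. Hsph1 had 27 UMIs (60.7 CPM) under TAK-981 and 52 UMIs (60.3 CPM) under vehicle in T cells. In myeloid cells Hsph1 had 2 UMIs under TAK-981 and 12 UMIs under vehicle, with a log2 interval of -5.23 to 0.14. Differences in these counts were not detectable at this depth.

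The abundant cytosolic chaperones were lower under TAK-981 in all 3 classes, except for Hspa8 in myeloid cells, and Hsp90aa1 was only slightly lower in A20 cells. Hspa8, the always-present HSP70 known as HSC70, had 63881 UMIs (1968 CPM) in TAK-981 A20 cells and 121209 UMIs (2286 CPM) in vehicle A20 cells, a log2 ratio of -0.22 (-0.23 to -0.20). In T cells it had 721 UMIs (1621 CPM) under TAK-981 and 1894 UMIs (2196 CPM) under vehicle, a log2 ratio of -0.44 (-0.56 to -0.31). In myeloid cells it had 768 UMIs (2116 CPM) under TAK-981 and 1001 UMIs (1875 CPM) under vehicle, a log2 ratio of 0.17 (0.037 to 0.31). The myeloid value was small and unsteady: 1 TAK-981 cell held 128 of the 768 UMIs, and the log2 ratio was 0.068 without the top cell of each library, 0.016 as a mean over cells and -0.025 when cells with Cd79a or Cd3 UMIs were left out. In A20 cells Hspa8 was lower under TAK-981 in all 10 strata, from -0.24 to -0.17.

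Hsp90ab1, the constitutive cytosolic HSP90, had 149207 UMIs (4596 CPM) under TAK-981 and 266056 UMIs (5019 CPM) under vehicle in A20 cells, a log2 ratio of -0.13 (-0.14 to -0.12). It had 1418 UMIs (3188 CPM) under TAK-981 and 3472 UMIs (4025 CPM) under vehicle in T cells, a log2 ratio of -0.34 (-0.43 to -0.25). In myeloid cells it had 551 UMIs (1518 CPM) under TAK-981 and 1127 UMIs (2111 CPM) under vehicle, a log2 ratio of -0.48 (-0.62 to -0.33). Every TAK-981 and every vehicle cell of all 3 classes held at least 1 Hsp90ab1 UMI before thinning. Hsp90aa1, the more inducible cytosolic HSP90, differed less in A20 cells, with 1078 CPM under TAK-981 and 1111 CPM under vehicle. The log2 ratio was -0.044 in all A20 cells and 0.041 among those with 10000 to 20000 UMIs. Hsp90aa1 was lower under TAK-981 in 6 of 10 strata of A20 cells, with log2 ratios from -0.10 to 0.062. It had 850 CPM under TAK-981 and 966 CPM under vehicle in T cells, and 488 CPM under TAK-981 and 614 CPM under vehicle in myeloid cells, log2 ratios of -0.18 (-0.36 to -0.0070) and -0.33 (-0.60 to -0.065). In the few T cells with 10000 to 20000 UMIs, 10 under TAK-981 and 12 under vehicle, the Hsp90aa1 log2 ratio was 0.98.

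The mitochondrial chaperonin genes were lower in TAK-981 T cells. Hspd1, the HSP60 subunit, had 136 UMIs (306 CPM) under TAK-981 and 371 UMIs (430 CPM) under vehicle in T cells, a log2 ratio of -0.49 (-0.79 to -0.20). At equal depth, 40.0% of TAK-981 and 68.3% of vehicle T cells had an Hspd1 UMI (57.8% and 86.7% unthinned). The log2 ratio was -1.30 with cells thinned to 4000 UMIs and -1.21 in T cells with no Cd79a or Lyz2 UMI, 35 under TAK-981 and 47 under vehicle, so it was larger when deep cells and cells with tumour transcripts weighed less. Hspe1, the HSP10 lid of the chamber, had 240 UMIs (540 CPM) under TAK-981 and 623 UMIs (722 CPM) under vehicle in T cells. Its log2 ratio was -0.42 (-0.64 to -0.20). The Hspe1 ratio was -0.91 in the same stricter T cells and as small as -0.21 in another setting, so it did not grow in every setting.

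In A20 cells the chaperonin genes parted. Hspd1 had 16591 UMIs (511 CPM) under TAK-981 and 31571 UMIs (596 CPM) under vehicle, a log2 ratio of -0.22 (-0.25 to -0.19), and was lower under TAK-981 in all 10 strata. Hspe1 had 34587 UMIs (1065 CPM) under TAK-981 and 55905 UMIs (1055 CPM) under vehicle, a log2 ratio of 0.015 that lay on either side of 0 among the settings tried. In myeloid cells Hspd1 had 46 UMIs under TAK-981 and 90 UMIs under vehicle, and Hspe1 had 100 and 177 UMIs in the same order. Both intervals included no difference there.

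**Figure D3:**
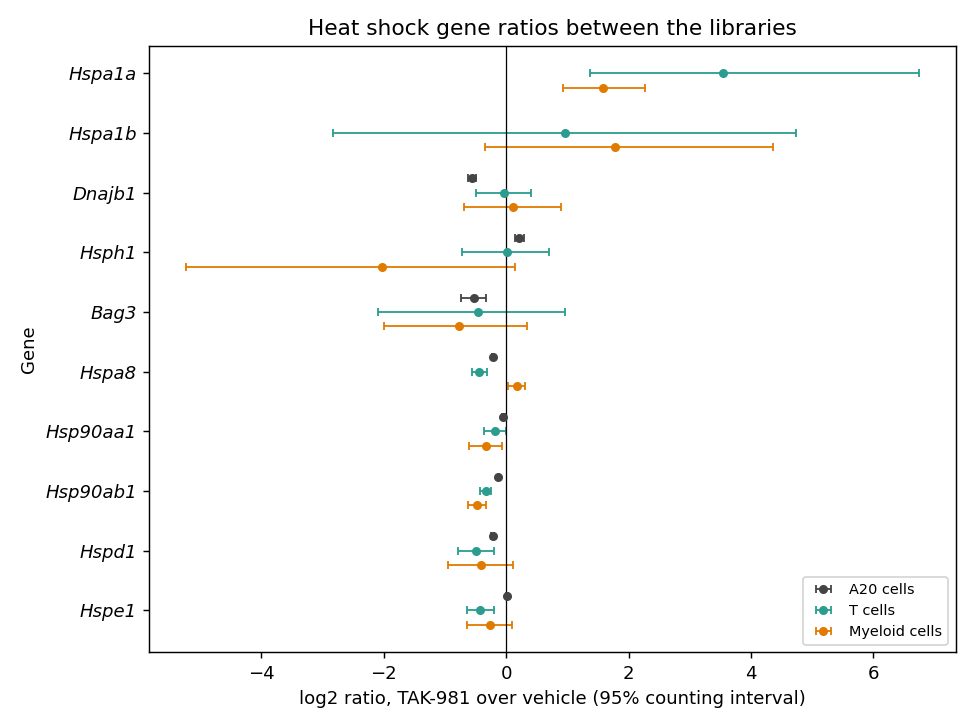
Log2 ratio of TAK-981 over vehicle for each gene in A20, T and myeloid cells, from UMIs summed over the cells of a class, with 95% counting intervals. Hspa1a lies at 1.58 in myeloid cells and 3.54 in T cells and has no A20 value, and Hsp90ab1, Hspd1 and Hsp90aa1 lie below 0 in all 3 classes.

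Over the members with at least 10 UMIs, the median log2 ratio was -0.17 in A20 cells (8 of 10 members measured), -0.34 in T cells (9 of 10) and -0.30 in myeloid cells (10 of 10). The medians over all genes with the same filter were 0.058, -0.044 and -0.095 in the same classes. In T cells, 1 of 9 members, Hspa1a, was at least 1.5-fold higher under TAK-981 and none was that much lower, beside 15% and 18.7% of all 7868 genes. In myeloid cells 2 of 10 members were at least 1.5-fold higher (Hspa1a and Hspa1b) and 2 lower (Hsph1 and Bag3), beside 18.5% and 26.1% of all 6417 genes. As a share of all UMIs, the 10 members together made up 0.940% under TAK-981 and 1.03% under vehicle in A20 cells, 0.675% and 0.857% in T cells, and 0.481% and 0.529% in myeloid cells.

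The order of the levels among the classes differed from gene to gene. For Hsp90ab1, Hsp90aa1, Hspd1 and Hspe1 the level was highest in A20, next in T and lowest in myeloid cells under TAK-981 and under vehicle alike, with no overlap of the counting intervals between A20 and either host class. Bag3 had the reverse order, at 27.6 CPM in myeloid, 13.5 CPM in T and 8.81 CPM in A20 cells under TAK-981 and 46.8, 18.5 and 12.7 CPM in the same classes under vehicle, and T cells did not differ from A20 cells beyond counting error. Hsph1 was highest in A20 and lowest in myeloid cells in both libraries, and its T level did not differ from A20 beyond counting error. Dnajb1 was highest in T cells in both libraries. Its myeloid level did not differ from A20 beyond counting error under TAK-981, and its T level did not under vehicle. Hspa8 was highest in myeloid cells under TAK-981 and lowest in them under vehicle, and this change of order rests on the unsteady myeloid value above.

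**Figure D4:**
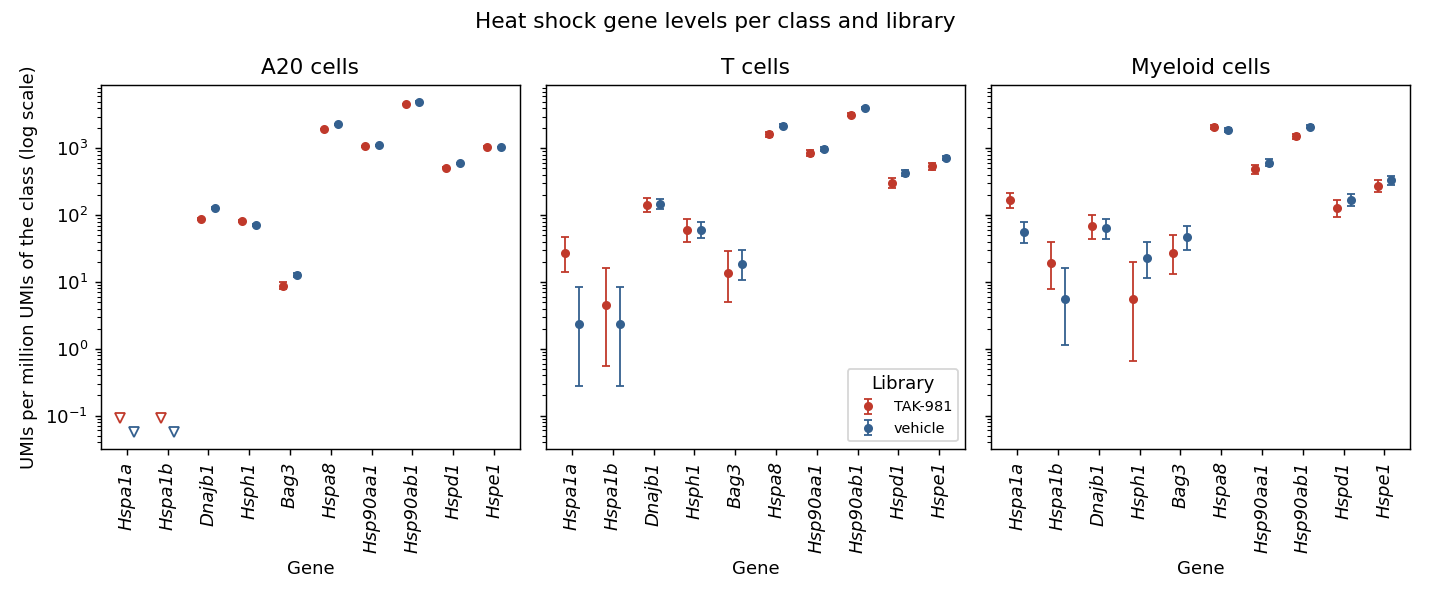
Level of each gene in CPM of the class (log axis) in A20, T and myeloid cells, TAK-981 in red and vehicle in blue, with 95% Poisson intervals. Open triangles mark the limit that a count of 0 allows, 0.0924 CPM under TAK-981 and 0.0566 CPM under vehicle, for Hspa1a and Hspa1b in A20 cells.

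Across single A20 cells thinned to equal depth the members moved together only weakly. Over the 28 pairs of the 8 detected members the median Pearson correlation of log-transformed UMIs was 0.13 in 1754 TAK-981 cells and 0.16 in 2191 vehicle cells, which share a library and a fixed UMI total. The highest was between Hspa8 and Hsp90ab1, at 0.37 under TAK-981 and 0.31 under vehicle. By CPM of unthinned cells, Mki67 or Top2a, genes of dividing cells, went with more Hsp90aa1, 1.22-fold under TAK-981 and 1.15-fold under vehicle. They also went with more Hspa8, 1.12-fold under TAK-981 and 1.11-fold under vehicle. Hsp90ab1 was lower in cells with a mitochondrial share of 5 to 10% than in those under 2.5%, at 0.724-fold under TAK-981 and 0.760-fold under vehicle. Of 3853 other genes, those most correlated with the summed inducible members included Hspa5, an HSP70 of the endoplasmic reticulum (0.20, the mean of both libraries), and Dnaja1, an HSP40 (0.17), as well as Adm, Malat1, Rbm39, mt-Co1, mt-Co2, Hmox1 and Jun (0.13 to 0.15). The sum held only Dnajb1, Hsph1 and Bag3, since Hspa1a and Hspa1b had no UMI in A20 cells. The 99th percentile over all 3853 genes was 0.091. In counts this sparse such weak correlations are a description.

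Beyond the members, 68 of 70 listed genes of the wider chaperone network were matched in the files, and the other 2 (Hikeshi and Cct6a) were not analysed here. In A20 cells 64 of them had at least 10 UMIs, 16 with log2 ratios above 0 and 48 below it, with a median of -0.082 and none 1.5-fold apart. The lowest among those with at least 50 UMIs were Bag2, an HSP70 co-chaperone (-0.29), Cct4, a subunit of the cytosolic chaperonin TRiC (-0.27), and Hsf1, the heat shock factor gene itself (-0.25), then Fkbp4 (-0.25) and Cdc37 (-0.24), which are HSP90 co-chaperones. The highest of these were Hspa4l, an HSP110 gene (0.28), Hsf2, a second heat shock factor (0.27), Dnajb4 (0.25), an HSP40, Hspa2 (0.23), an HSP70, and Dnajc5 (0.20), an HSP40 of vesicles. Of the 12 measured genes for TRiC and its partner prefoldin, 10 were below 0 in A20 cells, 10 in T cells and 11 in myeloid cells. Of all genes with at least 10 UMIs, 4925 of 12250 were below 0 in A20 cells, 4243 of 7868 in T cells and 3567 of 6417 in myeloid cells. Dnaja4, Hspb8 and Serpinh1, known HSF1 targets, had no UMI in A20 cells of either library, and Hspb1 had 0 UMIs under TAK-981 and 7 under vehicle. These 4 genes were named after their values were seen.

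In T cells, 4 of 62 wider genes were at least 1.5-fold higher and 8 at least 1.5-fold lower under TAK-981, both smaller shares than the 15% and 18.7% of all genes. The lowest with at least 50 UMIs were Stub1, the ubiquitin ligase that works with HSP70 (30 UMIs under TAK-981 and 106 under vehicle, a log2 ratio of -0.87), Dnajc2, a ribosome-bound HSP40 (-0.68), Clpp, a mitochondrial protease (-0.63), Hspa14 (-0.58) and Bag6 (-0.48). The highest of these were Dnajb6 (0.47), Hsbp1 (0.42), Cdc37 (0.37), Bag1 (0.33) and Dnaja1 (0.28). Of the 12 genes of mitochondrial chaperones and proteases, 10 were below 0 in T cells, with a median of -0.42. In A20 cells 9 of these 12 were below 0, with a median of -0.063. Of all genes, 4243 of 7868 were below 0 in T cells and 4925 of 12250 in A20 cells.

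In myeloid cells, 1 of 56 wider genes was at least 1.5-fold higher under TAK-981 and 16 at least 1.5-fold lower. The gene higher was Dnajc5 (0.70). Among the genes with at least 50 UMIs the lowest were Stip1, which joins HSP70 to HSP90 (12 UMIs under TAK-981 and 38 under vehicle, a log2 ratio of -1.11), Hspa9, the mitochondrial HSP70 (25 UMIs and 76 UMIs, -1.05), and Cct7 (-0.83), Tcp1 (-0.79) and Fkbp4 (-0.75). The next highest of these were Dnaja1 (0.51), Dnajc19 (0.40), Dnaja2 (0.33) and Dnajc7 (0.17). Of 9 measured HSP90 co-chaperones 7 were below 0, with a median of -0.68, in the cells in which Hsp90ab1 and Hsp90aa1 were also lower under TAK-981. Of all 6417 genes, 3567 were below 0 in myeloid cells. At 1.5-fold, 18.5% of all genes were higher and 26.1% lower. The wider list's lower count was thus near the background and its higher count below it.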

How the data were processed

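Per the labels' protocols, tumours were broken up through a filter, dead cells were removed and the rest went onto a 10x Genomics 5' kit. The submitters' processing notes name Cell Ranger 2.1.1 and Seurat 2. The genome build is not given in the sources used here. The deposited values are UMI counts per gene and barcode, with no normalization. The TAK-981 library had 2396 barcodes and 37470319 UMIs and the vehicle library 2579 barcodes and 57471750 UMIs, with no barcode under 4670 and 5965 UMIs.

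Counts were summed over the cells of a class and divided by the class total (CPM). A log2 ratio is TAK-981 over vehicle with an exact conditional binomial 95% interval, and shares of cells have exact Clopper-Pearson intervals. The ratio interval was checked only on counts simulated without spread between cells, so its coverage in these data is not known. Limits from counts of 0 stand for 3 counts of the total. Thinning drew 4000 UMIs from each cell, and no cell was shallower. No doublet caller was run. Mixed T and myeloid cells stayed in the reported values and were left out only under a stricter class rule, tried as an alternative setting. Medians used genes whose UMIs in the 2 libraries summed to at least 10, with a gene at 0 in one library at its bound. Named were all members, the 5 highest and 5 lowest wider genes per class with at least 50 UMIs, and the 10 genes most correlated with the inducible members and detected in at least 10% of thinned A20 cells, of which 1 is not reported here. The members and lists were chosen with earlier results of these data known. Scaling, cell weight, depth, mitochondrial limit, class rule, single cells and count filters were varied. The software was Python 3.11.15, matplotlib 3.10.9, pandas 2.3.3, scipy 1.17.1 and numpy 2.4.6.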

Additional observations from a re-analysis of the deposited data

Results flagged for a closer look

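Hspa8 was the one member whose difference between the arms ran in opposite directions in different cell classes with intervals on opposite sides of 0. Its log2 ratio of TAK-981 over vehicle was 0.17 in myeloid cells, against -0.22 in A20 cells and -0.44 in T cells. The difference between the classes was not tested, since there is 1 library per arm. The myeloid value was -0.025 when cells with Cd79a or Cd3 UMIs were left out and 0.068 without the top cell of each library.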

How the results depend on the processing

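Of 279 recomputed member ratios, 169 belong to the 17 whose reported interval excluded 0, and 3 of these changed sign. Those 3 were Hsp90aa1 in A20 cells with 10000 to 20000 UMIs (0.041), Hsp90aa1 in T cells of that depth (0.98) and Hspa8 in myeloid cells under the stricter class rule (-0.025), and the cause was not tested. Among the 11 ratios whose interval included 0, 19 of 110 recomputed values had the other sign, spread over 7 ratios such as Hspe1 in A20 and Dnajb1 and Hsph1 in T cells. The members' median in A20 cells, -0.17 as reported, was -0.23 with scaling by the median of gene ratios, -0.20 as a mean over each cell's own CPM and -0.089 among cells with 10000 to 20000 UMIs. The other 66 of 69 recomputed medians of the members and the wider list moved no further than 1 typical gene's counting interval reaches to either side. Such intervals are wide in the T and myeloid cells, so this limit is loose there and says little about how steady those medians are. Across the alternatives Hspa1a in myeloid cells ranged from 1.21 to 1.78 and Dnajb1 in A20 cells from -0.61 to -0.055. Of 60 shares of cells, 31 moved without thinning. No other scaling moved the median of all genes by more than 0.094 on the log2 scale. No paired analysis was possible because each arm has 1 library, and for the same reason no replicate could be left out. The host classes are small, with 45 T and 39 myeloid cells under TAK-981 and 60 T and 44 myeloid cells under vehicle.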
